A study of Paralichthys olivaceus with 6 samples.

Results

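Ocular-side skin of the Japanese flounder (Paralichthys olivaceus), the pigmented upper side of this flatfish, was profiled by RNA-seq in albino fish (PO_alb1, PO_alb2 and PO_alb3) and in normally pigmented fish (PO_con1, PO_con2 and PO_con3). All 6 fish were 5 months old and came from 1 full-sib family, each library was made from 1 fish, and the groups differ by the pigment phenotype that the labels list under genotype, with no allele named. The genes described here are TMEM130 (GS_020687), HEBP2 (GS_011013), SLC47A1 (GS_003949) and SLC13A5 (GS_003950), 4 of the 22498 genes in the count table and 4 of the 16260 genes that had enough reads to be tested. They were chosen by their read counts in albino against normal skin, which nearly vanished in albino fish although none of the genes has a textbook role in pigmentation. The difference between albino and normal fish that chose them is therefore given as a description without a test. Where a call from the fit over all genes is named for them, it is no independent evidence. How they varied among the normal fish, and what their neighbours in the ID order did, is described beside it.

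Fish skin carries several kinds of pigment cell that arise from the neural crest. Melanophores make melanin inside melanosomes with the enzymes tyrosinase (TYR) and TYRP1, xanthophores hold yellow pteridines whose synthesis begins with GTP cyclohydrolase 1 (GCH1), and iridophores hold purine crystals. GCH1 also starts the synthesis of tetrahydrobiopterin, a cofactor of amino acid hydroxylases in many cell types. TMEM130 encodes a membrane-spanning protein of unknown function, HEBP2 a small heme-binding protein, SLC47A1 (MATE1) a proton-coupled exporter of organic cations known from mammalian kidney and liver, and SLC13A5 (NaCT) a sodium-coupled importer of citrate known from mammalian liver and brain. GCH1 GS_008748 and TYRP1 GS_012029 served as the markers of the pteridine and melanin pathways. Skin was sequenced in bulk, so fewer cells of a type and less RNA per cell cannot be told apart.

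The libraries held 17905084 to 20025047 reads counted in genes, and the TMM factors that scale them ranged from 0.791 in PO_alb3 to 1.27 in PO_con3. Of the 16260 genes tested, 148 were lower in albino skin (0.91%) and 21 higher (0.129%), 1.04% in either direction, at an adjusted p below 0.05 in edgeR's quasi-likelihood test. All 4 genes are among the 148, which follows from how they were chosen. In 1214 genes (7.47%) every albino library lay below every normal one, and the 4 genes are among these too. None of the 4 reached 10 reads in more than 1 albino library and all 4 did so in every normal library, so they entered the test through the normal fish alone.

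TMEM130 was represented by 2, 1 and 0 reads in PO_alb1, PO_alb2 and PO_alb3, against 255, 338 and 698 reads in PO_con1, PO_con2 and PO_con3. Scaled by the TMM factors, it averaged 0.985 ± 0.998 normalized counts in albino fish and 389.7 ± 154 in normal fish (SD, n = 3 each). The albino level was 0.264% of the normal level, with a 95% interval of 0.0543% to 0.772%. This interval, like the others given for such shares, was computed exactly from the pooled reads by the Clopper-Pearson method and covers counting error only, not differences between fish. With 3 albino reads in all, the value was 0.137% without PO_alb1 and 0.362% without PO_alb3.

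HEBP2 had the most reads of the 4 in normal skin. It had 7, 0 and 1 reads in the albino libraries, against 576, 1424 and 1969 in PO_con1, PO_con2 and PO_con3. The means were 2.76 ± 3.71 normalized counts in albino fish and 1204 ± 520.0 in normal fish (SD, n = 3 each), so that albino skin held 0.229% of the normal level (0.0987% to 0.451%). The fitted log2 fold change was -8.67 (SE 0.69). Of the 8 albino reads 7 came from PO_alb1, and without that fish the level was 0.0444% of normal and the log2 fold change -10.79. Without PO_alb2, which had no read of the gene, the level was 0.364%.

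SLC47A1 kept the largest share of its reads. It had 4, 2 and 12 reads in PO_alb1, PO_alb2 and PO_alb3, against 102, 244 and 187 in the normal libraries. Albino fish averaged 7.20 ± 7.42 normalized counts and normal fish 167 ± 68.1 (SD, n = 3 each), so that the albino level was 3.83% of normal (2.25% to 6.12%) and the log2 fold change -4.64 (SE 0.58). PO_alb3 supplied 12 of the 18 albino reads, and without it the level was 1.76% and the log2 fold change -5.78. SLC47A1 was no longer called lower without PO_alb1, without PO_con2 or with a replicate block. The interval of SLC47A1 lies above those of TMEM130 and HEBP2 and overlaps that of TYRP1, at 3.17% (2.08% to 4.64%). GCH1 GS_008748, at 0.252% (0.0926% to 0.550%), overlaps TMEM130 and HEBP2. These intervals pool reads over fish and hold counting error only. Without PO_alb3 SLC47A1 falls below its own interval, so the intervals neither rank nor group the genes.

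SLC13A5 had no read in any albino library, against 19, 30 and 77 reads in PO_con1, PO_con2 and PO_con3. Its normal mean was 37.3 ± 22.0 normalized counts (SD, n = 3), the lowest of the 4. Counting 3 reads over the albino group as the most that 0 allows, the albino level was at most 2.70% of normal, at least 37.0-fold lower, and the exact interval used for the other genes has its upper end at 3.37%. The limit from 3 reads depends on how many reads were pooled: it was 4.20% without PO_alb1, 4.30% without PO_alb2 and 4.25% without PO_con3. SLC13A5 was called lower in 6 of 13 alternative fits, and of those that left out a fish only in the fit without PO_con1. The 6 include the fit with a prior count of 2, which changes only the fold change and so repeats the main call. At this depth SLC13A5 can therefore not be told apart from TMEM130, HEBP2 or SLC47A1 in how far it fell.

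**Figure D1:**
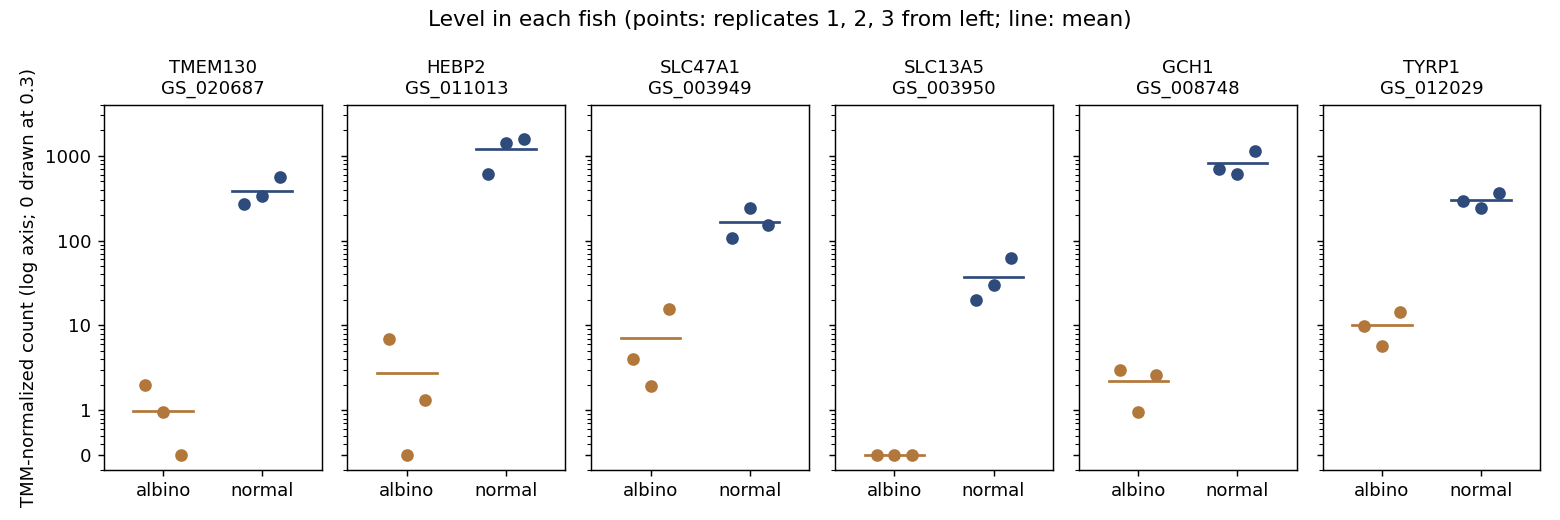
TMM-normalized counts on a log axis, with 0 drawn at the bottom, for TMEM130, HEBP2, SLC47A1, SLC13A5, GCH1 GS_008748 and TYRP1 GS_012029. Points are replicates 1, 2 and 3 of each group from left to right and lines are means (n = 3 each); every albino fish lies below every normal fish in each panel, and the highest albino point is PO_alb1 for HEBP2 and PO_alb3 for SLC47A1.

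The few albino reads did not gather in the same fish for every gene. PO_alb1 held the most for TMEM130 and HEBP2, and PO_alb3 for SLC47A1. Among the 55 genes lower in albino skin with 4 to 30 albino reads, the highest normalized count was in PO_alb1 for 25, in PO_alb2 for 12 and in PO_alb3 for 18. With counts this low, such an order describes these libraries and no more.

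Levels of different genes can be compared only per length, and the deposited RPKM values serve for that. In normal skin HEBP2 averaged 117 RPKM, TMEM130 25.0, SLC47A1 3.07 and SLC13A5 1.42, against 87.7 for GCH1 GS_008748 and 11.0 for TYRP1 GS_012029. By fish, HEBP2 had 47.0, 127 and 176 RPKM in PO_con1, PO_con2 and PO_con3, TMEM130 had 13.7, 19.9 and 41.3, SLC47A1 had 1.64, 4.28 and 3.30, and SLC13A5 had 0.596, 1.03 and 2.65. HEBP2 lay above TMEM130, TMEM130 above SLC47A1 and SLC47A1 above SLC13A5 in each normal fish, although the lowest SLC47A1 value was below the highest SLC13A5 value. The lengths behind these values, recovered from counts and RPKM, were 612 bases for HEBP2, 927 for TMEM130, 3108 for SLC47A1 and 1593 for SLC13A5. Of 20815 lengths recovered in this way 97.9% were multiples of 3, so they were read as coding lengths. Whether the gene model of each member is correct was not tested, and its RPKM depends on that length.

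The normal fish were next compared with each other, to see whether the genes followed GCH1 or TYRP1. For each gene the ratio of its reads to those of GCH1 GS_008748, and to those of TYRP1 GS_012029, was taken within each library, where the scaling cancels. The SD of the log2 ratio over PO_con1, PO_con2 and PO_con3 measures how closely the pair moved: it is 0 when the ratio is the same in every fish. A correlation over 3 fish would carry no weight and none was computed. TMEM130 kept the steadiest ratio to GCH1 and SLC47A1 the least steady. TMEM130 and SLC13A5 had a steadier ratio to GCH1 than to TYRP1 whichever normal fish was left out, whereas for HEBP2 and SLC47A1 the closer marker changed with the fish used. With a fish left out, however, the difference between both SDs can be the shift between the markers alone. Without PO_con3 it was 0.044 for all 4 genes, and without PO_con1 its size was 0.23 for HEBP2, SLC47A1 and SLC13A5. Leaving out a fish therefore says little about the members.

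TMEM130 had 0.385 reads per GCH1 read in PO_con1 (95% counting interval 0.332 to 0.446), 0.543 in PO_con2 (0.474 to 0.620) and 0.494 in PO_con3 (0.451 to 0.542). The SD of the log2 ratio was 0.26 to GCH1 and 0.39 to TYRP1, for which the ratios were 0.931, 1.37 and 1.57. The interval of PO_con1 does not reach those of PO_con2 and PO_con3, so even the steadier ratio moved by more than counting error. Among the 13822 other tested genes with at least 30 reads in each normal library, 7.29% kept as steady a ratio to TMEM130 as GCH1 did and 20.5% as steady a ratio as TYRP1 did. Among the 120 of them that were lower in albino skin, GCH1 took only place 24 and TYRP1 place 62. The difference between both SDs was 0.13, and between 0.04 and 0.28 when a normal fish was left out. The 0.28, without PO_con2, was the same for HEBP2 and SLC13A5, and the 0.044 without PO_con3 was the same for every member. Both describe the markers rather than TMEM130. The lowest value, 0.042 without PO_con1, was found among the members for TMEM130 only.

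HEBP2 followed neither marker closely. Its ratio to GCH1 was 0.870 in PO_con1, 2.29 in PO_con2 and 1.39 in PO_con3 (SD of the log2 ratio 0.70), and its ratio to TYRP1 was 2.10, 5.77 and 4.41 (SD 0.75). As steady a ratio to HEBP2 was found in 35.4% of the tested genes for GCH1 and in 45.4% for TYRP1. Among the 120 lowered genes GCH1 took place 84 and TYRP1 place 96. Other GCH1 copies were closer to HEBP2 than GS_008748 was: GS_005902 (0.38), GS_005903 (0.51) and GS_013228 (0.67). How closely HEBP2 moved with GCH1 thus depended on the copy. Which marker was closer changed with the fish used: without PO_con1 TYRP1 was the closer, by 0.23. The difference had the same size for SLC47A1 and SLC13A5, so that size describes the markers.

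SLC47A1 differed in shape from the other members. Its normalized counts were 108, 242 and 151 in PO_con1, PO_con2 and PO_con3, highest in PO_con2, whereas TMEM130 (271, 335 and 563), HEBP2 (612, 1411 and 1589) and SLC13A5 (20.2, 29.7 and 62.1) were highest in PO_con3, under each of the 3 scalings tried. The ratio of SLC47A1 to GCH1 was 0.154, 0.392 and 0.132 (SD 0.85) and that to TYRP1 0.372, 0.988 and 0.419 (SD 0.77). Of the tested genes, 88.2% kept as steady a ratio to SLC47A1 as GCH1 did and 79.7% as TYRP1 did, so most genes in the skin moved with SLC47A1 as closely as the markers. Among the 120 lowered genes GCH1 took place 111 and TYRP1 place 102. TYRP1 was closer by 0.08, and GCH1 was closer by 0.04 without PO_con3, the same as for every other member.

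SLC13A5 had 0.0287, 0.0482 and 0.0545 reads per GCH1 read (SD 0.49) and 0.0693, 0.121 and 0.173 per TYRP1 read (SD 0.66). Counting error alone would give an SD of about 0.27 for the ratio to GCH1 at these depths. GCH1 kept a ratio matched by 7.55% of the tested genes and TYRP1 one matched by 22.3%. Among the 121 lowered genes GCH1 took place 28 and TYRP1 place 71. Among the members, SLC13A5 stood closest to TMEM130, with an SD of 0.28, which 0.854% of the tested genes matched. TMEM130 took place 7 of the 121 lowered genes, and counting error alone would give an SD of about 0.27 for this pair. Its ratio to SLC47A1, the gene with the preceding ID, was far less steady, since SLC47A1 had 5.37 times its reads in PO_con1, 8.13 times in PO_con2 and 2.43 times in PO_con3 (SD 0.89).

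**Figure D2:**
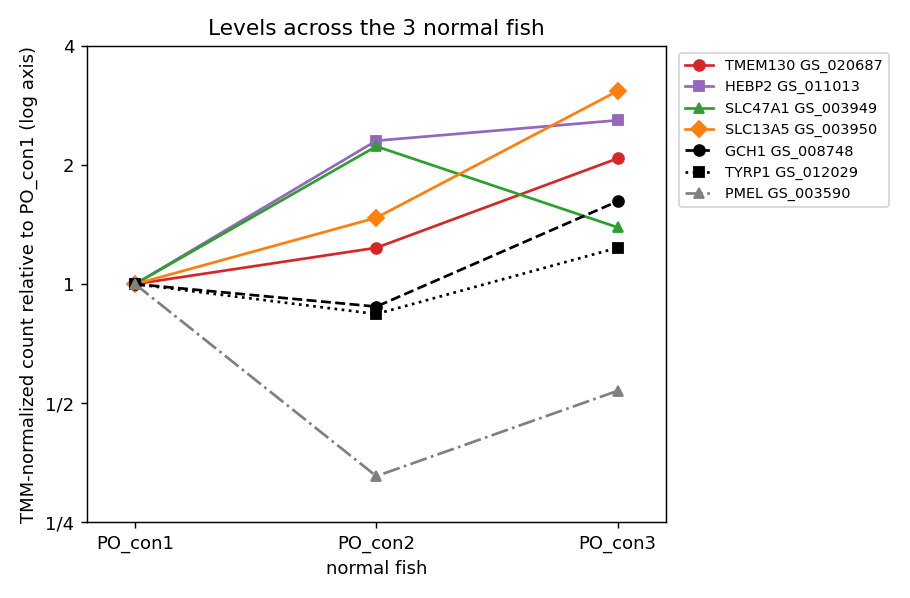
TMM-normalized count in each normal fish relative to PO_con1 (log axis) for the 4 genes and for GCH1 GS_008748, TYRP1 GS_012029 and PMEL GS_003590, with a line joining the values of each gene. SLC47A1 is the only one of the 4 that is highest in PO_con2 (242 normalized counts), while GCH1 and TYRP1 are lowest there, which for GCH1 holds with TMM and RLE scaling but not with library totals, where PO_con1 is lowest.

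Many lowered genes were highest in PO_con3. Among the 121 genes lower in albino skin with at least 30 reads in each normal library, 93 (76.9%) were highest in PO_con3 and 65 (53.7%) had PO_con1 lowest, PO_con2 between and PO_con3 highest. Among all 13823 genes of that depth 37.2% were highest in PO_con3, 25.0% in PO_con2 as SLC47A1 was, and 24.3% had that order. TMEM130, HEBP2 and SLC13A5 thus have the commonest pattern of the lowered genes, though SLC13A5, with 19 reads in PO_con1, is itself not among the 121. SLC47A1 is among the 16 of the 121 that were highest in PO_con2.

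The ratios were also taken to every gene of the pathway lists. Over 6 pteridine and purine genes (4 GCH1 copies, SPR and XDH), the median SD of the log2 ratio was 0.22 for TMEM130, 0.64 for HEBP2, 0.75 for SLC47A1 and 0.47 for SLC13A5. Over the 7 of 9 melanin and melanosome genes with enough reads it was 0.41, 0.75, 0.73 and 0.70 in the same order of genes. For TMEM130 the closest were GCH1 GS_005903 (SD 0.057) and GCH1 GS_005902 (0.079), closer than GCH1 GS_008748, and whether the GCH1 copies share reads was not tested. For TMEM130 all 6 pteridine and purine genes (0.057 to 0.30) were steadier than the 7 melanin and melanosome genes (0.38 to 1.12), and likewise for SLC13A5 (0.25 to 0.58, against 0.65 to 1.36). SLC45A2, left out for its 22 reads in PO_con1, breaks this order for SLC13A5, at 0.50. It was also steadier than every pteridine and purine gene for HEBP2 (0.26, against 0.38 or more) and SLC47A1 (0.39, against 0.68 or more), but not for TMEM130 (0.34). OCA2, also left out, was less steady than all 6 for each member (0.76 to 1.22). Of the 3 keratins of the epidermis listed, KRT13 GS_014679 was closer to TMEM130 (0.14) than GCH1 GS_008748 was, while KRT13 GS_018838 (0.44) and KRT18 (0.46) were less close than GCH1 or TYRP1. KRT13 GS_014679 was also closer than both markers to HEBP2 (0.51), SLC47A1 (0.67) and SLC13A5 (0.43). KRT13 GS_018838 was closer than both to HEBP2 (0.64) and SLC47A1 (0.54) but not to SLC13A5 (0.72), and KRT18 was closer than both to none. The ratio of TMEM130 to PMEL, a structural protein of melanosomes, was unsteady (SD 1.12).

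**Figure D3:**
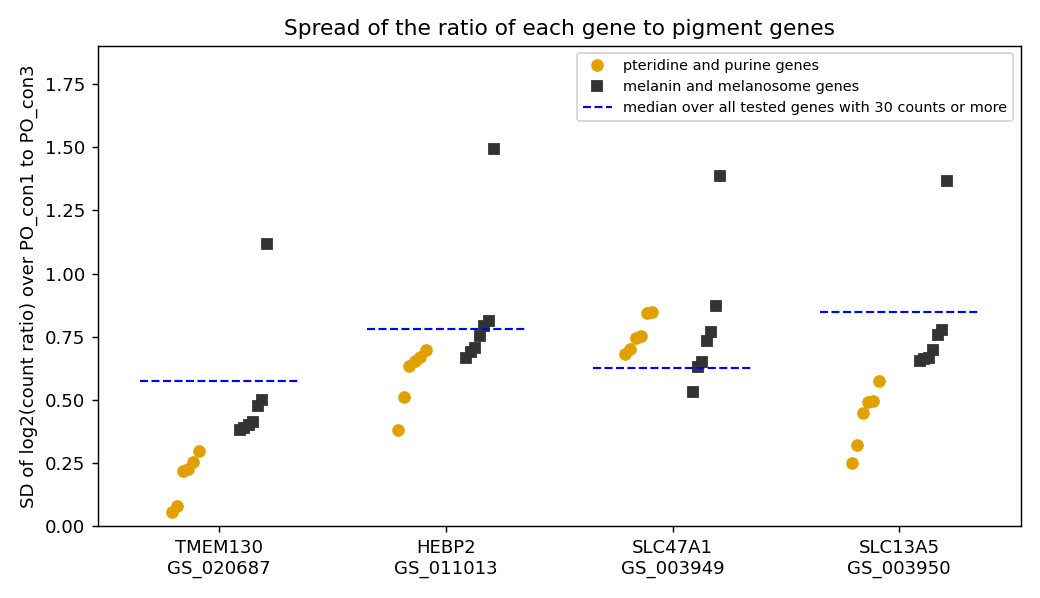
SD of the log2 count ratio over PO_con1, PO_con2 and PO_con3 between each of the 4 genes and single pteridine and purine genes (circles) or melanin and melanosome genes (squares), with the median over all tested genes of the same depth as a dashed line. A low point is a steady ratio: the circles of TMEM130 lie lowest (median 0.22), and those of SLC47A1 (median 0.75) lie above its dashed line at 0.63.

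The genes lower in albino skin whose ratios were steadiest differed for each member. For TMEM130 they were GCH1 GS_005903, GAD1 (0.063), which makes the transmitter GABA from glutamate, and TTC39B (0.070). For HEBP2 they were PNPLA2 (0.10), a lipase of lipid droplets, RASEF (0.20) and XYLT1 (0.20), which starts the sugar chains of proteoglycans. For SLC47A1 the assembled transcript Novel00307 stood far ahead (0.042), with 0.425, 0.436 and 0.451 reads of SLC47A1 per read, before GS_018722 (0.27) and CCDC18 (0.31). For SLC13A5 they were IL1B (0.18), an inflammatory cytokine, GS_013312 (0.18) and GS_008590 (0.24). These are the 3 lowest SDs over 3 fish among 120 genes, or 121 for SLC13A5, and they say nothing of shared function. Except for RASEF, XYLT1, GS_018722 and CCDC18, each lay below the SD that counting error alone would give. That SD was about 0.12 for TMEM130 with GCH1 GS_005903 and 0.14 for SLC47A1 with its closest transcript. Differences among SDs this low are therefore not resolved.

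Markers of other tissue and of pigment cells were summed in the same libraries. All of these genes are in the study's table of genes that differ between these same fish, so their direction is not independent evidence. Summed over 4 muscle genes (DES, MUSTN1, TNNT2 and METTL21C), PO_alb1, PO_alb2 and PO_alb3 had 33906, 39445 and 48087 normalized counts, against 24936, 22307 and 12387 in PO_con1, PO_con2 and PO_con3, nearly all from DES, and 1 of the 4 (METTL21C) was higher in albino fish in edgeR's test, beside 0.129% of all genes tested. Summed over 3 keratins, the albino fish had 13761, 10444 and 8355 and the normal fish 23692, 26779 and 40306. Nearly all of this came from KRT13 GS_014679, which was not called (adjusted p 0.076 in edgeR's test). The 2 of the 3 that were lower, beside 0.91% of all genes tested, were KRT13 GS_018838 and KRT18, which add little to the sums. No muscle or keratin gene listed was at 0 in all albino libraries. The pteridine and purine genes summed to 17.0, 12.5 and 20.9 in albino fish and to 2094, 2278 and 3863 in normal fish, with 6 of 6 lower, and the melanin and melanosome genes to 176, 123 and 122 in albino fish and to 1672, 1333 and 1750 in normal fish, with 8 of 9 lower. The pigment lists fell with TMEM130, HEBP2, SLC47A1 and SLC13A5, and the part that muscle, keratin or pigment cell content had in their levels was not tested.

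Gene IDs of this genome run in series, and the IDs of SLC47A1 and SLC13A5 are consecutive, so the genes with the 5 IDs before and after each member were examined. Of 30 such genes 23 could be tested, and 1 was lower in albino skin, beside a background of 0.91%. It was GS_011014, the ID after HEBP2, which had 1, 0 and 1 reads in the albino libraries, against 328, 930 and 1590 in PO_con1, PO_con2 and PO_con3. Its log2 fold change was -9.99 (SE 0.81). It too had under 10 reads in each albino library, so it entered the test through the normal fish alone. The study had already listed it among the genes that differ between these same fish, so its call is not independent evidence. The sources used here give GS_011014 no name, and its coding length was 249 bases. No normal fish overlapped an albino fish.

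The ratio of HEBP2 to GS_011014 was also followed among the normal fish. HEBP2 had 1.76 reads per read of GS_011014 in PO_con1 (1.53 to 2.02), 1.53 in PO_con2 and 1.24 in PO_con3 (1.16 to 1.32), an SD of 0.25. The ratio thus moved by more than counting error, and 1.9% of the tested genes kept as steady a ratio to HEBP2, with GS_011014 in place 10 of the 120 lowered genes. Per length GS_011014 was the higher, with 65.8, 204 and 350 RPKM in PO_con1, PO_con2 and PO_con3 and a mean of 207. Whether the 2 IDs are separate genes or pieces of 1 transcript, and whether reads of 1 were counted in the other, was not tested.

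The other 22 neighbours had log2 fold changes from -1.34 to 0.51, with a median of 0.03 and no adjusted p below 0.35 in edgeR's test. Around TMEM130 the 6 tested neighbours lay between -0.90 and 0.18, and the ID just before it, GS_020686, was at -0.32. Around HEBP2 the 7 neighbours besides GS_011014 lay between -0.36 and 0.32, with GS_011012 at 0.00. Around SLC47A1 and SLC13A5 the 9 tested neighbours lay between -1.34 and 0.51, with GS_003948 at -0.48 before the pair and GS_003951 at 0.18 after it. GS_011014 was thus the only one of the 23 tested neighbours called lower.

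**Figure D4:**
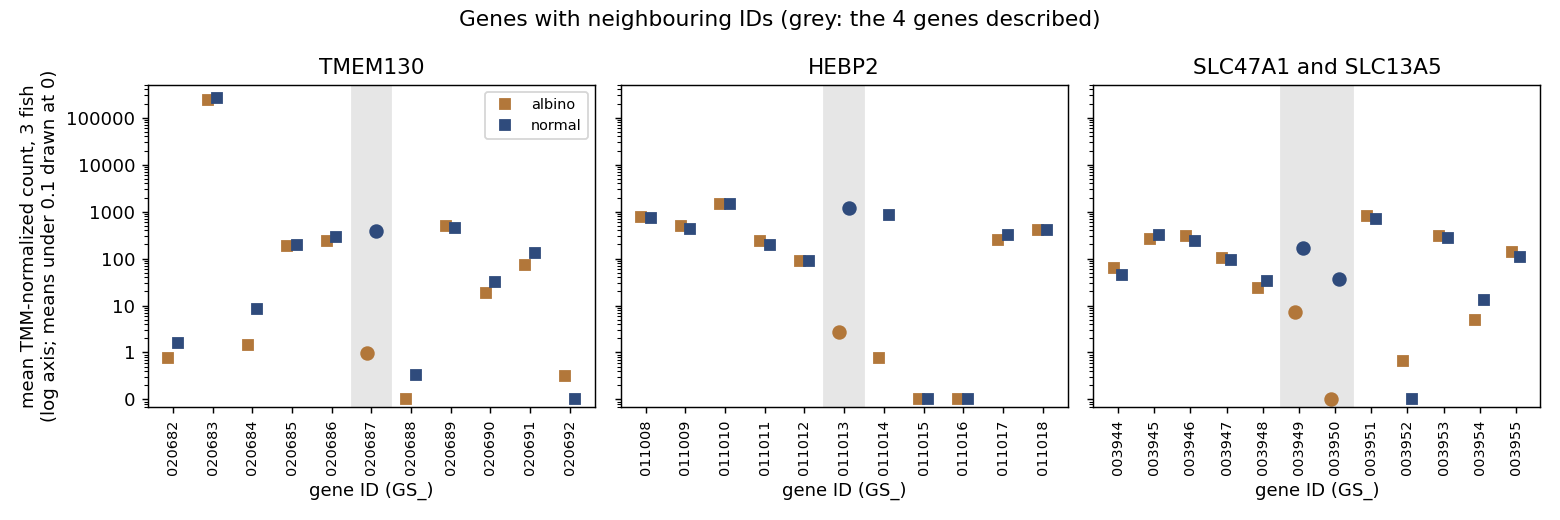
Mean TMM-normalized count of the albino and of the normal fish (log axis, n = 3 each, means under 0.1 drawn at 0) for the 4 genes, shaded in grey, and for the genes up to 5 IDs before and after them, whether tested or not. Albino and normal means stand side by side for most neighbours, and GS_011014, next to HEBP2, is the neighbour with the widest gap.

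Over the whole table, 11794 pairs of consecutive IDs were both tested, and in 6 of them (0.0509%) both genes were lower in albino skin. SLC47A1 with SLC13A5 and HEBP2 with GS_011014 are 2 of the 6, and GCH1 GS_005902 with GCH1 GS_005903 is another. The pair of solute carriers was chosen because its genes fell and the IDs are consecutive, so its presence in the count is no result. The deposited tables pair no ID with a position, and none of the IDs matched the RefSeq gene table of assembly ASM2471397v2 (0 matched), so adjacency was read from the IDs alone. In that assembly slc13a5b lies next to slc47a3, whereas slc47a1 lies on another chromosome next to tmigd1, hebp2 lies between nhsl1b and cmtr1, and tmem130 lies next to baiap2l1a. Which of these SLC47 genes GS_003949 is was not tested, and the name SLC47A1 is used as the study gives it.

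Other solute carriers were set beside SLC47A1 and SLC13A5. The 14 listed come from a table the study drew up from these same fish, so their direction is not independent evidence. Of these 10 were lower in albino skin, beside 0.91% of all genes tested, and 1, SLC32A1 (the vesicular carrier of GABA and glycine), was higher, by 2.82 on the log2 scale, beside 0.129%. The median log2 fold change of the list was -4.16, against 0.01 over all genes tested. SLC23A1, a transporter of vitamin C, resembled SLC13A5 in having 0 reads in albino skin, against 83 in normal skin. SLC24A3, a potassium-dependent sodium and calcium exchanger, was at -7.08, SLC2A11, a sugar transporter, at -6.34, and RFT2, a riboflavin transporter, at -5.77 (SE 0.38). SLC23A1, SLC24A3 and RFT2 had under 10 reads in each albino library, so they entered the test through the normal fish alone. SLC47A1, at -4.64, lay between these carriers and SLC22A7, an organic anion transporter, at -4.22, and differences between carriers were not tested. The 3 not called were SLC6A13 GS_006243 (-2.17), SLC45A2 (-2.62) and SLC2A9 GS_014684 (-2.95), with adjusted p of 0.092, 0.064 and 0.067. The number lower was 13 with DESeq2, 3 with a replicate block, 5 without PO_con2 and 6 without PO_alb3.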

How the data were processed

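Libraries from total RNA of 6 skins were sequenced as paired ends. Mapping by the authors was to the species' genome with TopHat2 (2.0.9; submitters' processing notes, which also name Bowtie2 2.0.6 and Cufflinks 2.1.1), HTSeq counted reads per gene, and the deposited tables hold these counts and RPKM values (reads scaled by length and library size). Whether counting used strand is not given in the sources used here. Gene names come from the study.

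Counts were tested with edgeR 4.0.16 (R 4.3.3): filterByExpr, TMM scaling, a quasi-likelihood fit of group alone and Benjamini-Hochberg adjustment over 16260 genes. The SE of a log2 fold change is approximate: its size was divided by the square root of the quasi-likelihood F statistic. Albino and normal fish were compared with n = 3 each, and nothing beyond the label of separate fish of 1 family sets the replicates apart. Normalized counts are counts divided by the TMM-scaled library size, times the mean of these sizes. Read ratios used raw counts, with at least 30 in each normal library for the genes set beside a member (SLC13A5 itself had 19 in PO_con1). RPKM served for levels between genes. The code was tested on simulated data.

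Members and gene lists were chosen with earlier results of these data known. Named genes are the members, both markers, genes of the lists, the 5 IDs on either side and the 3 genes with the steadiest ratios. Alternatives were RLE scaling, library totals, a minimum of 10 counts in every library, no filter, a prior count of 2, DESeq2 1.42.0, limma 3.58.1 on log2(RPKM + 1), an RPKM pseudocount of 0.1, a replicate block and leaving out each fish.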

Additional observations from a re-analysis of the deposited data

How the results depend on the processing

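The fitted log2 fold change of all 4 genes was below 0 in each of the 13 alternative fits that tested them. TMEM130 and HEBP2 were called lower in all 13, SLC47A1 in 10 (not with the replicate block, without PO_alb1 or without PO_con2) and SLC13A5 in 6 (not with limma, the block, or without any 1 of the albino fish, PO_con2 or PO_con3). A prior count of 2 changes only the fold change, so the calls of that fit repeat the main ones. The genes were chosen from this contrast in the same fish, so these calls follow from the choice and are no evidence for the fall. With 3 fish a group and 0 to 18 albino reads per gene, the size of the fall is known only roughly, and no ratio across 3 fish can be tested. The intervals given cover counting error only. Leaving out a fish moved HEBP2 (0.0444% without PO_alb1) and SLC47A1 (1.76% without PO_alb3) below their intervals. The number of genes lower (148) became 274 with DESeq2, 89 with limma and 33 with at least 10 counts in every library, a filter that removes genes nearly absent from albino skin, the 4 genes included. The number higher (21) became 90 with DESeq2, 7 with limma, 7 with library totals and 5 with that filter. Library totals put the median gene at -0.13, against 0.01, and changed no direction of the 4 genes.

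With that filter 0 neighbours, 0 solute carriers and 0 ID pairs remained lower, and DESeq2 gave 12 pairs. limma, whose offset understates low genes, put HEBP2 at -6.41 and SLC47A1 at -1.83. Leaving out 1 fish gave 67 to 138 genes lower and 2 to 14 higher, 5 to 10 solute carriers and 4 to 6 ID pairs. It put TMEM130 at 0.137% to 0.362% of normal, HEBP2 at 0.0444% to 0.364% (log2 fold change -10.79 to -8.03), SLC47A1 at 1.76% to 5.42% (-5.78 to -4.15) and the limit for SLC13A5 at 2.24% to 4.30%.

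The SD of the log2 ratio to TYRP1 minus that to GCH1 was 0.04 to 0.28 for TMEM130, -0.23 to 0.28 for HEBP2 (-0.23 without PO_con1), -0.23 to 0.044 for SLC47A1 (0.044 without PO_con3) and 0.044 to 0.28 for SLC13A5. With 2 fish left, such an SD is only the distance between 2 ratios, and the difference can be the shift between the markers alone.

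Albino and normal fish share replicate numbers. Deviations of same-numbered fish correlated at -0.17, 0.18 and -0.44, and those of fish with unlike numbers at -0.30 to 0.43. No pairing by number was seen, but 3 fish a group are too few to exclude it. A replicate block gave 53 genes lower, 4 higher, 3 solute carriers lower and 3 ID pairs.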
